A study of Drosophila melanogaster and Drosophila simulans and Drosophila yakuba with 30 samples.

Results

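The SoxN locus of Drosophila melanogaster was taken here as 100 kb of chromosome arm 2L, from 8780001 to 8880000 in the UCSC dm3 build, a stretch given as SoxN with its surroundings. Binding intervals of the Sox proteins Dichaete and SoxN that shared at least 1 bp with this window were collected from 6 interval lists in D. melanogaster coordinates. There were 124 of them, out of 98045 intervals in the 6 lists and 18420 on 2L. SoxN (CG18024) itself was not placed on the intervals, because the gene table used here belongs to a later build. In the gene order of that table SoxN is preceded by the protein-coding genes LManVI and CG42710 and followed by lncRNA:CR45365 and asRNA:CR45260, a long non-coding and an antisense RNA.

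SoxN (SoxNeuro) and Dichaete are group B Sox proteins, transcription factors that bind the minor groove of DNA through a single HMG domain and bend it. Both are expressed in the early neuroectoderm and the developing central nervous system of the fly, in overlapping patterns, and they can partly stand in for each other there. In DamID a protein is fused to the Dam methylase of E. coli, which methylates the adenine of GATC sites near the places the protein visits, and the methylated fragments are then sequenced.

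DamID-seq was carried out in whole embryos of 4 species in 10 groups of 3 biological replicates, which makes 30 libraries. SoxN-Dam embryos came from D. melanogaster (strain w[1118]) and D. simulans (w[501]). Dichaete-Dam and Dam-only embryos came from both of these and from D. yakuba (Cam-115) and the reference strain of D. pseudoobscura. Every fusion carried the D. melanogaster protein, behind UAS sites and an Hsp70 promoter in a piggyBac vector with an eye GFP marker, and the Dam-only controls carried Dam behind the same elements. Embryos were 0 to 16 h old, from stocks kept at 25 °C or, for D. pseudoobscura, at 22.5 °C. Per the study's methods, embryos of every species were collected at 25 °C. Each list was called on 3 fusion and 3 Dam-only libraries together, so no value below has a replicate SD, no test between species or proteins could be made from the lists, and how many reads support an interval is unknown. The lists of both proteins in a species share their Dam-only libraries. In the 3 translated species a missing interval can be a fragment that was not enriched or a sequence that did not pass LiftOver, and the list alone does not tell which. Where the other protein of the same species has an interval at that place, reads had been translated there.

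Both Sox proteins were bound at many places in the SoxN window, and SoxN covered more of it than Dichaete in both species where it was assayed. Intervals of the D. melanogaster SoxN list covered 31.0% of the window, against 17.5% of 2L as a whole. In D. simulans the SoxN list covered 27.8% of the window and 12.5% of 2L, a ratio of 2.23. For Dichaete the excess over the arm was smaller in these species. Its intervals covered 25.3% of the window in D. melanogaster against 17.7% of 2L, and 10.5% in D. simulans against 10.2%. The D. yakuba Dichaete list reached 32.8% in the window and 24.5% on the arm. The sparse D. pseudoobscura list covered 4.02% of the window and 1.06% of 2L, which is the highest ratio of the 6 lists at 3.80.

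These coverages were compared with those of all 229 windows of 100 kb laid side by side on 2L, in the plot of window coverages. Windows of 1 arm come from the same libraries, so their ranks are descriptions. The SoxN window ranked 10 for D. simulans SoxN, 14 for D. pseudoobscura Dichaete and 23 for D. melanogaster SoxN. For Dichaete it ranked 47 in D. melanogaster and 66 in D. yakuba. In D. simulans its rank for Dichaete was 110, close to the median window, which was covered to 10.2%. Only 3 other windows of 2L were covered at least as much as the SoxN window in each of the 6 lists, and 5 were when D. pseudoobscura was left aside. The place of the window edges matters to these values. In the central 50 kb coverage was higher in each list, reaching 7.65% for D. pseudoobscura, while in 200 kb with the same centre it was 2.01% for that list and 18.1% for D. simulans SoxN.

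**Figure D1:**
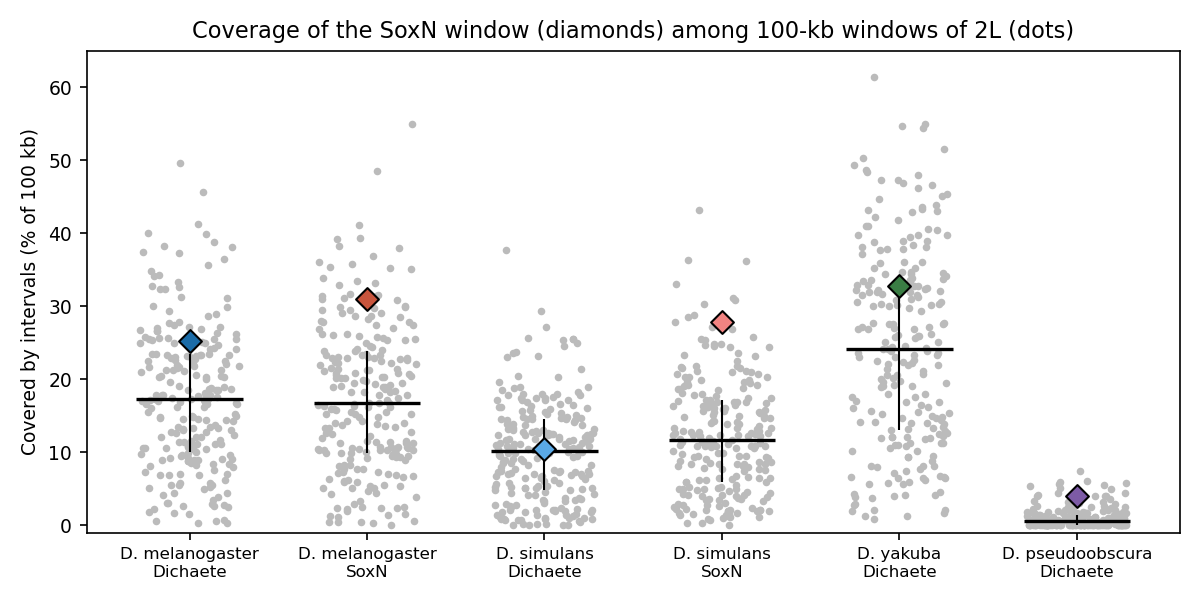
Coverage of 100-kb windows of 2L by the intervals of each list, in percent of the window. Grey dots are the 229 windows, horizontal bars their median, vertical bars the 25th to 75th percentile, and diamonds the SoxN window, which lies near the median for D. simulans Dichaete and far above it for both SoxN lists.

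Counts of intervals were also high for SoxN in D. simulans and for Dichaete in D. pseudoobscura. With 26 intervals in the D. simulans SoxN list, the window was matched or passed by 5 other windows of 2L. The 9 intervals of D. pseudoobscura were the most that any window held in this list, a number that 2 other windows also reached. The median window held 1 such interval, and 68 windows held none. In the remaining lists the window held 23 Dichaete intervals and 26 SoxN intervals in D. melanogaster, 17 Dichaete intervals in D. simulans and 23 in D. yakuba, and between 63 and 82 other windows held at least as many.

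The difference between SoxN and Dichaete was wide at this locus in D. simulans. SoxN coverage of the window exceeded Dichaete coverage by 17.4 percentage points, the second largest difference among the 229 windows, whose median was 1.55. In D. melanogaster the difference was 5.73 points and ranked 7, with a window median of -0.23. Across the 10-kb bins of the window, SoxN covered more than Dichaete in 10 of 10 bins in D. simulans and in 7 of 10 in D. melanogaster, with 2 bins equal and 1 lower. In the first D. simulans bin SoxN covered only 0.32%, through an interval of 32 bp, and Dichaete none. In the bin from 8850001 to 8860000 the D. simulans values were 27.8% and 25.1%. The SoxN-Dam transgene itself carries the SoxN coding sequence, and reads from it cannot be told apart from reads of the locus. Its part in the SoxN intervals was not tested, since the coding sequence was not placed in dm3. In D. melanogaster the difference depended on how intervals were made, at 3.71 points with the lists at the adjusted p threshold of 0.01 and 9.33 with gaps of up to 1000 bp joined. It also depended on the window, at 2.31 points in 200 kb with the same centre. In D. simulans it was 7.99 points in 200 kb and 26.1 in the central 50 kb.

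The 100 kb on either side of the window differed from it. In D. simulans SoxN intervals covered 12.6% of the 100 kb before the window and 11.3% of the 100 kb after it. In D. melanogaster they covered 15.3% and 20.4%. Both lists were thus higher at the SoxN window than in either flank, and so were D. pseudoobscura Dichaete, at 1.03% and 0.51% in the flanks, and D. melanogaster Dichaete, at 20.4% before and 17.9% after. In D. simulans Dichaete varied little over the 3 windows, with 10.1% before and 11.8% after. D. yakuba went the other way, with 46.8% before and 42.9% after, both above the 32.8% of the SoxN window.

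The windows of 2L whose 6 coverages came closest to those of the SoxN window, by Euclidean distance in percentage points, ran from 280001 to 380000 (6.94), from 13180001 to 13280000 (8.25) and from 9880001 to 9980000 (8.77). In all 3, D. simulans Dichaete covered more than at the SoxN window, between 13.3% and 18.0%, and D. pseudoobscura Dichaete less, between 0.733% and 1.69%. D. simulans SoxN was below its level at the SoxN window as well, between 23.2% and 27.2%.

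Within the window, binding was gathered in 2 blocks, the 2 most covered bins of 10 kb in each list except D. simulans Dichaete, whose highest bin was that from 8850001 to 8860000 at 25.1%. The map of intervals and the plot of coverage along the window show them. The first lay from 8810001 to 8820000. SoxN covered 82.9% of this bin in D. melanogaster and 51.9% in D. simulans. Dichaete covered 76.2% of it in D. melanogaster, 47.1% in D. yakuba, 22.8% in D. simulans and 12.5% in D. pseudoobscura. The other block lay from 8840001 to 8850000. Here D. yakuba Dichaete was highest, at 79.1% of the bin, followed by D. melanogaster SoxN at 68.4%, D. melanogaster Dichaete at 67.2% and D. simulans SoxN at 54.4%. D. simulans Dichaete covered 20.2% of it and D. pseudoobscura Dichaete 12.0%. Between the blocks, the bin from 8820001 to 8830000 was covered to at most 13.4%, in D. yakuba, and held no interval of the D. simulans Dichaete or D. pseudoobscura lists. The bin after it, from 8830001 to 8840000, was covered to 44.8% in D. yakuba, close to the 47.1% of the first block, and to 37.2% and 36.6% by SoxN in D. melanogaster and D. simulans. Dichaete covered 23.6% of it in D. melanogaster, 17.2% in D. simulans and 8.59% in D. pseudoobscura. In D. simulans Dichaete was also without an interval in the first 3 bins, where SoxN of the same species reached 18.5% and 19.1% in bins 2 and 3.

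**Figure D2:**
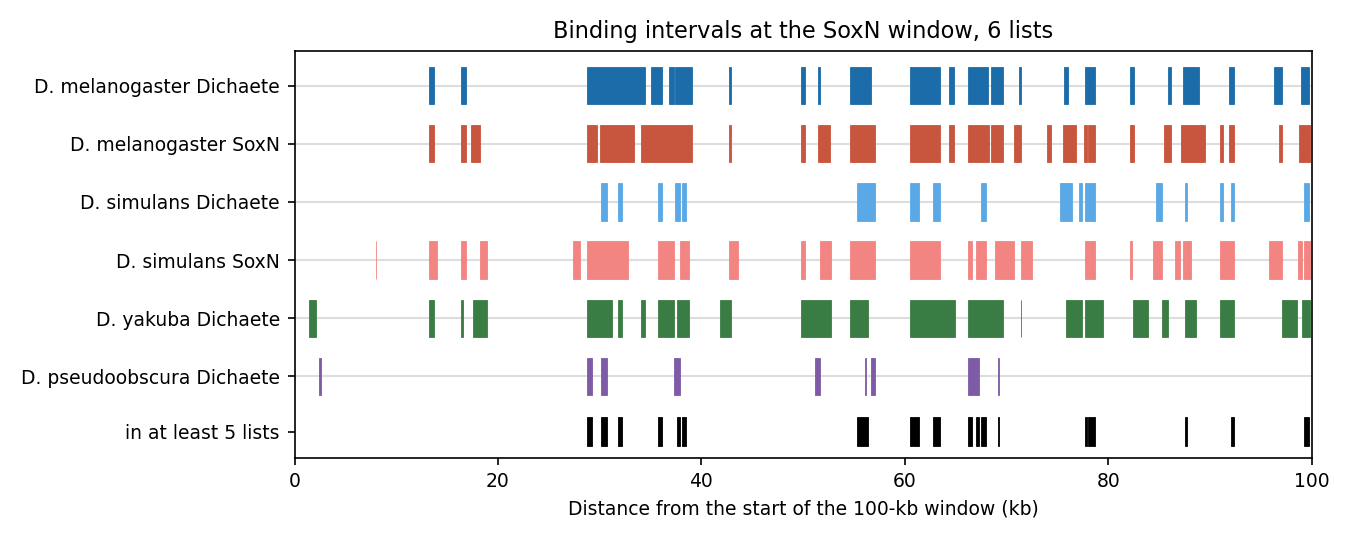
Map of the 124 intervals in the 6 lists, with distance from the start of the window in kb on the horizontal axis and 1 row for each list. The bottom row marks the 18 stretches that lie in at least 5 lists, none of which falls in the first 2 bins of 10 kb.

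**Figure D3:**
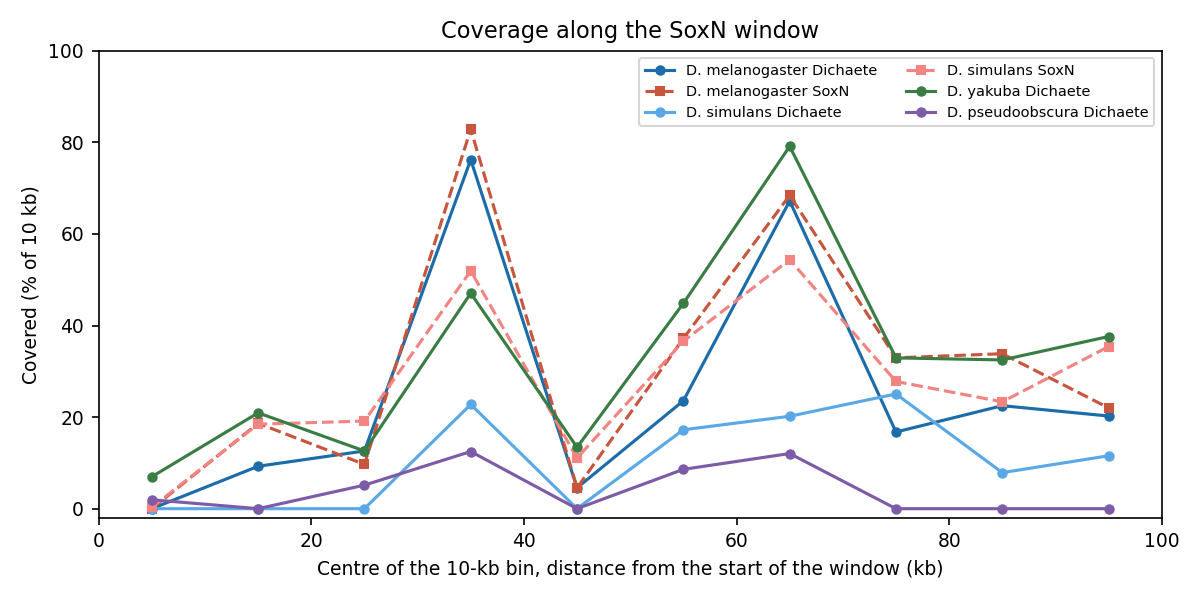
Percentage of each 10-kb bin covered by intervals, against distance of the bin's centre from the start of the window in kb. Each line is 1 list, solid with circles for Dichaete and dashed with squares for SoxN, and the bins at 35 and 65 kb stand above the bin at 45 kb in all 6 lists.

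In 3 of the lists the longest interval lay at the first block. In D. melanogaster the longest Dichaete interval ran from 8808741 to 8814480, 5740 bp in which 22 GATC fragments had been merged, with the fourth column of the lists read as the number of fragments. It ranked 42 by length among the 3910 Dichaete intervals of 2L. The longest SoxN interval, from 8814081 to 8819052, merged 23 fragments over 4972 bp and ranked 50 of 4349. A further SoxN interval of 3313 bp and 12 fragments ran from 8810026 to 8813338. In D. simulans the longest SoxN interval, from 8808741 to 8812792, began at the same base as the D. melanogaster Dichaete interval, merged 19 fragments over 4052 bp and ranked 59 of 2939. The longest Dichaete and SoxN intervals of D. melanogaster thus shared only the stretch from 8814081 to 8814480. The SoxN interval of 3313 bp and the longest D. simulans SoxN interval lay wholly inside the longest D. melanogaster Dichaete interval.

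In the other block the same interval was called repeatedly. From 8840466 to 8843472, 11 fragments and 3007 bp formed a single interval in D. melanogaster Dichaete, D. melanogaster SoxN and D. simulans SoxN, with the same first and last base. The longest D. yakuba interval started at this base too and ran on to 8844926, with 15 fragments over 4461 bp. D. yakuba Dichaete also had an interval of 22 fragments from 8846238 to 8849689 and one of 8 fragments from 8829764 to 8832710. Between the blocks, both SoxN lists held the identical interval from 8834640 to 8837035, and the D. melanogaster Dichaete list held one from 8834640 to 8836673. The intervals of D. simulans Dichaete were shorter. Its longest, from 8835313 to 8837035, spanned 1723 bp and 6 fragments, the next, from 8855238 to 8856451, spanned 1214 bp and 12 fragments, and the third, from 8857691 to 8858719, was identical in D. melanogaster Dichaete and D. simulans SoxN.

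All 9 D. pseudoobscura intervals were short. The longest ran from 8846238 to 8847304, 1067 bp, and ranked 54 of the 427 in this list on 2L. Intervals from 8817259 to 8817887 and from 8810117 to 8810735 merged 4 fragments each. Those from 8808741 to 8809254 and from 8831174 to 8831634 merged 3 fragments each. The remaining 4 were single fragments, from 8782387 to 8782581, from 8836115 to 8836150, from 8836674 to 8837035 and from 8849167 to 8849303. Of these 9 intervals, 8 overlapped an interval of at least 1 other list, a count for which no share over 2L is given. D. melanogaster Dichaete overlapped 7 of the 9, against 63.5% on 2L. Of the other 2, that at 8782387 overlapped no list, and that at 8836674 only touched a D. melanogaster Dichaete interval end to end. The study describes its D. pseudoobscura profiles as noisier than those of the other species.

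The share of intervals made of a single fragment was lower in the window than on the arm in each of the lists, by amounts that varied. In D. melanogaster they made up 2 of 23 Dichaete intervals, or 8.70% against 28.3% on 2L, and 4 of 26 SoxN intervals, or 15.4% against 29.9%. In D. simulans they were 5 of 17 for Dichaete, 29.4% against 35.8%, and 5 of 26 for SoxN, 19.2% against 31.6%. In D. yakuba they were 21.7% against 27.6% and in D. pseudoobscura 44.4% against 56.0%, and no test was made of these differences. Median lengths did not follow one pattern. The median SoxN interval was longer in the window than on 2L, at 721 bp against 592 bp in D. melanogaster and 840 bp against 659 bp in D. simulans, and so was the median D. yakuba interval, at 1366 bp against 950 bp. For Dichaete in D. melanogaster it was shorter, at 532 bp against 662 bp, and in D. simulans at 449 bp against 549 bp.

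Every Dichaete interval of the window in D. melanogaster overlapped a SoxN interval, 23 of 23, against 86.5% over 2L. The exact (Clopper-Pearson) 95% interval of this share, 85.2% to 100%, includes the share of the arm, and like those that follow it covers counting error only and treats neighbouring intervals as independent. Conversely, Dichaete overlapped 23 of 26 SoxN intervals, 88.5% (69.8% to 97.6%) against 79.5% on 2L. In base pairs, 93.3% of the Dichaete coverage lay inside SoxN intervals, against 81.9% on 2L, and 76.1% of the SoxN coverage inside Dichaete intervals, against 82.6%. Of the intervals, 8 had the same first and last base in both lists, 34.8% of those of Dichaete and 30.8% of those of SoxN, near the 36.8% and 33.0% of the arm.

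In D. simulans the sharing was lopsided. SoxN overlapped 14 of 17 Dichaete intervals, 82.4% (exact 95% interval 56.6% to 96.2%) against 70.0% on 2L. Dichaete overlapped 11 of 26 SoxN intervals, 42.3% (exact 95% interval 23.4% to 63.1%) against 66.3% on 2L, and Dichaete intervals held 30.7% of the SoxN base pairs in the window against 54.5% on the arm. Only 1 interval was identical in both lists, 5.88% of those of Dichaete and 3.85% of those of SoxN, against 19.8% and 19.6% on 2L. In this species Dichaete covered 10.5% of the window and 10.2% of 2L, and SoxN covered 27.8% and 12.5%. The part of these coverages in the overlap shares was not tested.

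Between species, D. melanogaster SoxN intervals of the window recurred in D. simulans more often than those of the arm. D. simulans SoxN overlapped 20 of 26 D. melanogaster SoxN intervals, 76.9% (exact 95% interval 56.4% to 91.0%) against 46.7% on 2L, and in the other direction 20 of 26 against 72.3%, which lies inside the same interval. For Dichaete in D. melanogaster, D. yakuba intervals overlapped 21 of 23, 91.3% (72.0% to 98.9%) against 63.9% on 2L, and D. pseudoobscura intervals overlapped 6 of 23, 26.1% (10.2% to 48.4%) against 6.21%. D. simulans Dichaete was the exception, with 11 of 23, 47.8% (26.8% to 69.4%) against 46.5%. In the reverse direction, D. melanogaster Dichaete overlapped 19 of 23 D. yakuba intervals, 82.6%, with a lower exact bound of 61.2%, against 58.4% on 2L. It overlapped 7 of 9 D. pseudoobscura intervals (40.0% to 97.2%) against 63.5% and 14 of 17 D. simulans Dichaete intervals (56.6% to 96.2%) against 68.9%, and both of these exact intervals include the share of the arm. The D. yakuba, D. pseudoobscura and D. simulans SoxN lists also covered more of the window than of the arm, as given above, and the part of this coverage in the overlaps was not tested. All these overlaps count from 1 bp. With at least 50% of the D. melanogaster interval shared, D. yakuba overlapped 15 of 23 Dichaete intervals and D. pseudoobscura 2 of 23. At that setting D. simulans SoxN overlapped 17 of 26 SoxN intervals, and no share over 2L is given for it.

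**Figure D4:**
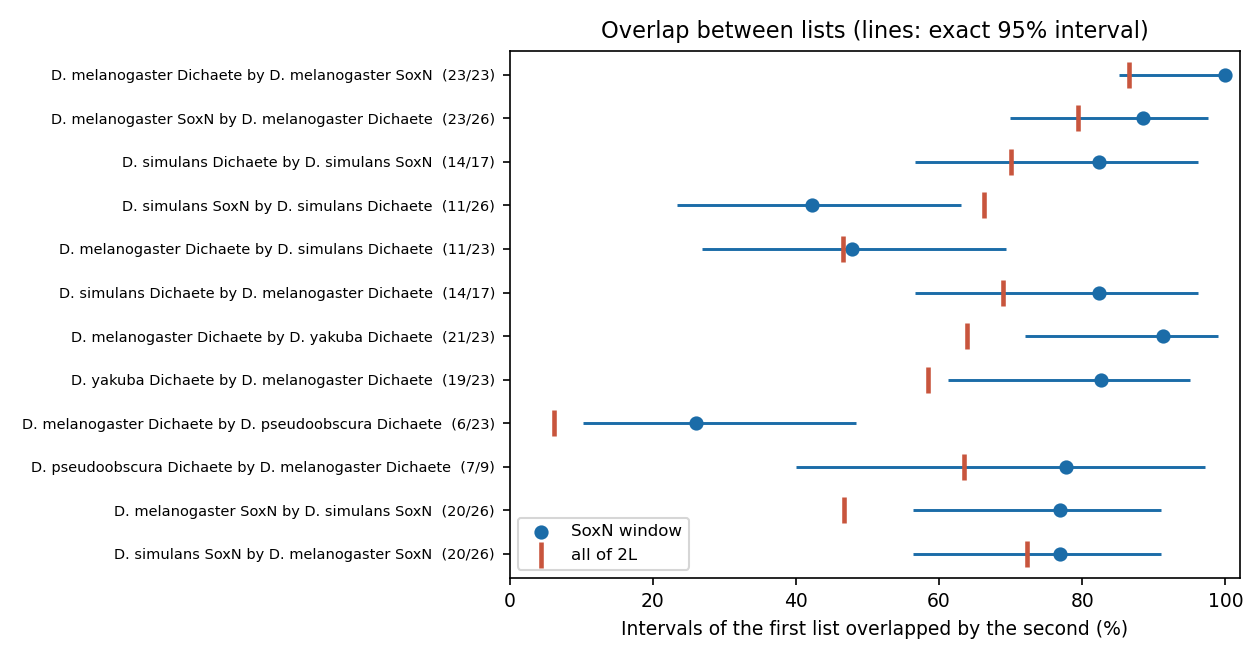
Share of the intervals of the first list that an interval of the second overlaps by at least 1 bp, in percent, for 12 ordered pairs. Points are the SoxN window with the exact 95% interval, vertical ticks are all intervals of 2L, and the counts stand in brackets; D. simulans SoxN by Dichaete lies below its tick and D. melanogaster SoxN by D. simulans SoxN above.

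Merging intervals that shared a base gave 27 regions in the window. Intervals could be joined in a chain, so the lists of a region need not all share a base. The number of lists in a region ranged from 1 to 6. In all, 9 regions held intervals of at least 5 lists, 33.3% (exact 95% interval 16.5% to 54.0%) against 19.9% of the 5954 regions of 2L. Intervals of all 6 lists lay in a region of 10312 bp from 8808741 to 8819052, which takes in the first block. They also lay in a region of 2396 bp from 8834640 to 8837035 and in one of 4446 bp from 8846238 to 8850683. In the last of these, no base lay in all 6 lists. The region from 8829764 to 8832710 held intervals of every list except D. simulans Dichaete, but no base of it lay in 5 lists. The 5 that lacked only D. pseudoobscura ran from 8840466 to 8844926, from 8857630 to 8859440, from 8867156 to 8869496, from 8870944 to 8872309 and from 8878663 to 8879872. At the right end of the window, beyond 8850000, D. pseudoobscura had no interval at all.

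Apart from D. pseudoobscura, which had an interval in 5 of the 27 regions, D. simulans Dichaete was present in the fewest, 10 regions against 17 to 20 in the other lists. Both SoxN lists had intervals in 15 of the 27 regions, and D. simulans Dichaete was present in 8 of these and absent from 7. In the region from 8797328 to 8798963, which lacked D. simulans Dichaete, the SoxN intervals of the species only touched end to end. In those 7 the D. simulans SoxN interval shows that reads of the species had been translated there. A set of 4 regions held intervals of both proteins in D. melanogaster, of SoxN in D. simulans and of Dichaete in D. yakuba, but none of D. simulans Dichaete. No share over the regions of 2L is given beside these counts, so they do not set the window apart from the arm. On 2L the D. simulans Dichaete list held 2911 intervals, against 2939 to 4349 in the other lists apart from D. pseudoobscura. Regions seen in 1 list numbered 8, 29.6% against 39.2% on 2L, of which 4 were D. simulans SoxN, 2 D. yakuba Dichaete, 1 D. melanogaster SoxN and 1 D. pseudoobscura Dichaete. Of these, D. simulans SoxN from 8851439 to 8852504 and D. yakuba from 8877030 to 8878552 touched intervals of other lists end to end. Another D. simulans SoxN region, from 8788005 to 8788036, spanned 32 bp. No Dichaete interval of D. melanogaster or D. simulans stood alone, and the share of such intervals over 2L is not given. The single D. melanogaster SoxN region ran from 8853979 to 8854333 and was 1 of 4 SoxN intervals absent from the list at the threshold of 0.01. That list covered 24.2% of the window and 12.3% of 2L. For Dichaete 2 intervals were absent at that threshold, and coverage was 20.5% of the window and 13.9% of 2L. The share of intervals absent over 2L is not given for either protein.

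Base by base, 48.5% of the window lay in at least 1 list, against 36.3% of 2L, and 8.47% lay in at least 5, against 4.02%. These values ranked 64 and 31 among the 229 windows. The 8466 bp in at least 5 lists fell into 18 stretches, the longest of which spanned 1101 bp from 8835313 to 8836413. All 6 lists met over 655 bp, in 619 bp from 8810117 to 8810735 and in 36 bp from 8836115 to 8836150. The first of these is also the whole of an interval in both the D. simulans Dichaete and the D. pseudoobscura list, so this stretch was set by the narrowest calls. Stretches without an interval of any list were as long as 8420 bp, from 8798964 to 8807383, and 6169 bp, from 8823595 to 8829763. The former lies to the left of the first block and the latter between the blocks.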

How the data were processed

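The values are interval lists deposited by the authors, with no header, that give a chromosome, start, end and a whole number taken here as the GATC fragments merged. Per the study's methods, reads trimmed with Cutadapt were aligned to the genome of their own species (dm3, droSim1, droYak2, dp3) with bowtie2, lengthened to 200 bp and counted per GATC fragment. DESeq2 was run by the authors on the fragment counts of fusion against Dam-only samples, and enriched fragments lying at most 100 bp apart were joined into intervals. Reads of the other species had been translated to dm3 with LiftOver (minMatch 0.7, or 0.5 for D. pseudoobscura). The authors' lists at an adjusted p of 0.05 were used, with the D. melanogaster lists at 0.01 as an alternative. The 4 lists in other genomes were not used. Versions named in the submitters' processing notes, as the authors' tools, are DESeq2 1.6.1, HOMER 4.7, SAMtools 0.1.19 and bedtools 2.21.1.

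Coverage, overlaps (from 1 bp) and merged regions come from NumPy 2.4.6 and SciPy 1.17.1 under Python 3.11.15, and figures from Matplotlib 3.10.9. The length of 2L was set to the largest interval end. On simulated lists with known overlaps, the functions passed 10 of 10 checks. Named intervals were the 3 longest of each list, all D. pseudoobscura intervals and all regions in at least 5 lists, with stretches beyond these chosen after their values were seen. The locus, the window and the comparisons were chosen with earlier results of these data known.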

Additional observations from a re-analysis of the deposited data

How the results depend on the processing

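With intervals of at least 500 bp only, the window held 12 Dichaete and 16 SoxN intervals in D. melanogaster, 8 Dichaete intervals in D. simulans and 4 in D. pseudoobscura, and with gaps of up to 1000 bp joined 16 D. melanogaster SoxN intervals. Coverage moved in 26 of 26 comparisons, judged against the narrow binomial interval of its base pairs because a pooled list has no replicate spread. In the order D. melanogaster Dichaete, D. melanogaster SoxN, D. simulans Dichaete, D. simulans SoxN, D. yakuba and D. pseudoobscura, it was 21.4%, 27.4%, 7.29%, 25.6%, 31.3% and 2.83% with intervals of at least 500 bp, 27.8%, 37.2%, 12.3%, 31.8%, 35.4% and 5.41% with gaps joined, 37.3%, 42.8%, 12.0%, 38.1%, 39.4% and 7.65% in 50 kb, and 19.7%, 22.0%, 10.1%, 18.1%, 33.7% and 2.01% in 200 kb. At the threshold of 0.01 it was 20.5% and 24.2% in D. melanogaster.

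Percentiles among 2L windows moved mostly with window size. With 50 kb they were 94.1 and 96.5 for D. melanogaster Dichaete and SoxN, 62.5 for D. simulans Dichaete, 81.5 for D. yakuba and 98.5 for D. pseudoobscura, and with 200 kb 61.9 and 71.7 for D. melanogaster, 80.5 for D. simulans SoxN, 78.8 for D. yakuba and 82.3 for D. pseudoobscura. With gaps joined D. pseudoobscura stood at 96.9. The other 33 percentiles, which include windows every 10 kb and windows of all arms, stayed within the exact 95% binomial interval of the reported value, though some shifted by more points than those above, such as D. simulans Dichaete, from 52.2 to 45.6 with intervals of at least 500 bp.

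Overlap counts fell where short intervals were dropped, and so did the number of intervals in each list. The overlap counts came to 11 of 12 for D. melanogaster Dichaete by SoxN and 11 of 16 for SoxN by Dichaete. In D. simulans they came to 7 of 8 for Dichaete by SoxN and 6 of 19 for the reverse. Between species they came to 5 of 12 for D. melanogaster Dichaete by D. simulans and 6 of 8 in reverse. For D. yakuba they were 11 of 12 and 9 of 18 in reverse, and for D. pseudoobscura 3 of 12 and 4 of 4 in reverse. For SoxN they were 11 of 16 in D. melanogaster and 11 of 19 in D. simulans. No share over 2L is given at this setting. With at least 50% of the interval shared, 5 D. simulans SoxN intervals were overlapped by Dichaete, and D. melanogaster Dichaete intervals were overlapped 5 times by D. simulans and 2 times by D. pseudoobscura. The other 31 counts and all 3 for regions in at least 5 lists, 1 of them (without D. pseudoobscura) chosen after seeing the data, moved by at most 1.5 times. Among these, with at least 50% of the interval shared, D. melanogaster Dichaete by D. yakuba fell from 21 to 15 and the reverse from 19 to 13. D. melanogaster SoxN by Dichaete fell from 23 to 18. The difference of SoxN and Dichaete coverage was also recomputed in ways chosen after seeing the data. It was 9.33 points with gaps joined, 3.71 at the threshold of 0.01 and 2.31 in 200 kb for D. melanogaster, and 26.1 in 50 kb and 7.99 in 200 kb for D. simulans, and SoxN stayed above Dichaete in each.

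No paired analysis was possible because each list pools the 3 replicates of a group, and leaving out a replicate could not be done for the same reason. The lists hold no reads, so depth sets no stated limit on a missing interval.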
